A study of Mus musculus with 16 samples.

Results

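Protein-coding genes with a body of 500 kb or more were followed through the Sox2 immunoprecipitations of mouse embryonic stem cells (mESC). The genes were the protein-coding rows of the deposited table with an annotated length of at least 500 kb and a mean of at least 100 UMIs over the 8 input libraries, without Lrba, Nbea and 12 name starts that belong to other gene families. The choice gave 119 of the 53379 genes in the table. Of 230 protein-coding genes of that length, 106 lay under 100 UMIs and 5 were left out by name (Arhgap26, Arhgap6, Chd1, Lrba and Nbea). The genes were thus chosen by their length and their mean input UMI count, so the input levels themselves are a description.

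The study asked which RNAs come down with Sox2 in living cells after either of 2 crosslinkers. Male mESC without feeders, kept pluripotent in LIF with a MEK inhibitor and a GSK3 inhibitor, were exposed to ultraviolet light (UV-RIP) or to formaldehyde (fRIP), lysed by sonication, and Sox2 was immunoprecipitated. Each crosslinker had 4 IP libraries and 4 input libraries, numbered as replicates 3 to 6, and each number stood for 1 culture plate that gave both an IP and an input. All 16 libraries were of ribosome-depleted total RNA from unmodified cells, and no precipitation without the Sox2 antibody was analysed here.

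A transcript of such a gene takes hours to make, and nearly all of it is intron that is spliced out and degraded in the nucleus. Total RNA counted over whole gene bodies therefore holds nascent and unspliced RNA beside mature mRNA. Many of the longest genes of mammals encode synaptic adhesion molecules, ion channels and scaffold proteins of neurons, and several lie at common fragile sites, where replication under stress leaves breaks. UV joins protein to RNA at direct contacts, whereas formaldehyde also joins protein to protein and keeps neighbours together.

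The 119 genes had a median length of 694 kb, 25 were over 1000 kb and 5 over 2000 kb. Exons made up a median of 1.42% of the body in the 108 genes whose version matched the annotation. The median was 17.2% in 8285 of the shorter protein-coding genes at the same level filter. Per 100 kb of body the 119 genes had a median input level of 5.67 CPM (UMIs of the gene scaled to the library total). It was 163 CPM per 100 kb in those 8285 shorter genes. Ptprg (chr14:11553532-12242041), a receptor tyrosine phosphatase, had the highest level per length at 246 CPM per 100 kb of body. It was followed by Smyd3, a lysine methyltransferase (208), Magi1, a junctional scaffold (190), Exoc4, a subunit of the exocyst (186), and Etl4 (150), all in the same unit. The longest bodies were those of Gm20388, a predicted gene on chromosome 8 (4435 kb), the growth factor receptor gene Fgfr2 (2961 kb) and the receptor phosphatase gene Ptprd (2271 kb). These are annotated spans: in Gm20388 and Fgfr2 the longest stretch without an exon was 4380 and 2820 kb, and 73 and 30 other protein-coding genes overlapped the body. Gm20388 and Fgfr2 shared 33.9% and 27.7% of their bodies with other genes on the same strand, and all 446 genes nested on the same strand within the 119 genes were listed at 0 UMIs. Just inside the length limit lay Dock1 (502986 bp) and Fgf13 (505927 bp), and just outside it Prkce (490135 bp) and Dennd1a (488400 bp). Their fRIP log2 differences of IP from input were 0.81, 0.39, 1.14 and 0.47. At the level limit the last genes inside were Tenm1 (101.1 UMIs) and Dlgap1 (105.6), with fRIP values of 0.06 and -0.01, and the first outside were Cadm2 (97.25) and Ryr3 (95.0), with 0.06 and 0.09.

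RefSeq promoter windows of GRCm38.p6 were matched by symbol to 96 of the 119 genes. Each window runs from 250 bases before to 50 bases after an annotated start, and for the 86 genes with coordinates the start closest to the 5' end of the body was taken. It lay within 1000 bp of that end in 66 of the 86 and further away in 20, in 12 of them by over 100 kb, with Fgfr2 furthest at 2856542 bp. Windows of 4 genes from both ends of the range of IP against input are shown, with the dinucleotide CG in capitals. St6galnac3 and Slit3 had the first and the third highest fRIP value, Dach2 the lowest UV-RIP value and Dmd the lowest fRIP value.
St6galnac3, chr3:153725084-153725383 (-): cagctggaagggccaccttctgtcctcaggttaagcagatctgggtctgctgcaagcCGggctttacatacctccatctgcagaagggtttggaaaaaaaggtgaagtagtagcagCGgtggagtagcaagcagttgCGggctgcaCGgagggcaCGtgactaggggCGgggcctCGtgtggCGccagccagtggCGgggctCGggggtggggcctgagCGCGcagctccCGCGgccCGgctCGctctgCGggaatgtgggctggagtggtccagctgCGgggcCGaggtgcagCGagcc
Slit3, chr11:35121206-35121505 (+): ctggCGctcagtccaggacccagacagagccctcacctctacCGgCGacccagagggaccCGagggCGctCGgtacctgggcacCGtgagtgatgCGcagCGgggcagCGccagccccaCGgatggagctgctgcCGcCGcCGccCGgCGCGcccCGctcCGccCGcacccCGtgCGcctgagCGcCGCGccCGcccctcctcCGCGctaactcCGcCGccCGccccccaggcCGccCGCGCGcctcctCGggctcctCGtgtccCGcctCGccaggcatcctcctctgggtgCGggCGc
Dach2, chrX:113297260-113297559 (+): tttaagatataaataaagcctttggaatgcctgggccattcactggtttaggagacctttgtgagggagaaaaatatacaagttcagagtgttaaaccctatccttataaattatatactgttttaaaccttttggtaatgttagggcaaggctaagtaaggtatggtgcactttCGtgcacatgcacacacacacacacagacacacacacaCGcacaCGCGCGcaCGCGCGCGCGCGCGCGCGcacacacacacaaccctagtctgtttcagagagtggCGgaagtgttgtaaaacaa
Dmd, chrX:82948620-82948919 (+): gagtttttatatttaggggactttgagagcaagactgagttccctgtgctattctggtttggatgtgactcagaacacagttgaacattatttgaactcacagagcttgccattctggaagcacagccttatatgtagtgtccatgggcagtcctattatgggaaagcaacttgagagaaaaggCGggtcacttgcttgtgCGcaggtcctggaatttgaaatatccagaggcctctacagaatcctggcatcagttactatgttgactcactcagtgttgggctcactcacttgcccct
These windows held 20, 41, 15 and 2 CG dinucleotides. Over the 86 windows the median was 21, against 7 in all 32851 windows of the table. The study names TTGT as the core of the consensus motif that Sox2 recognizes in DNA. The letters CTTTGT, which hold that core and stand in the FGF4 enhancer site of the study, were searched on both strands. Sites with other letters before the core, such as ATTGT, were not counted. The letters CTTTGT stood in 18.6% of the 86 windows and in 18.7% of all windows. Of the windows shown, that of Dach2 held them.

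The libraries held 12456298 to 21211537 UMIs on genes. Pluripotency markers were present in every input, with summed levels for 10 genes of 2460 to 2630 CPM in the UV-RIP inputs and 3890 to 4720 CPM in the fRIP inputs, 1 of the 10 being listed at 0. The Sox2 row was listed at 0 UMIs in all libraries; Sox2 lies within Sox2ot, on the same strand. Markers of neural, mesodermal, endodermal and fibroblast cells, summed within each class, reached at most 7.26 CPM in any input. That highest sum was of the endodermal markers. However, 3 of the 4 neural markers (Sox1, Neurod1 and Tubb3) were listed at 0 in every library, so the neural sum is that of Pax6. A listed 0 can come from the counting of overlapping genes and is no measure of low expression. The noncoding genes Gm26917 and Gm42418 took 20.5 to 24.7% of the UV-RIP IP libraries, at least 13.7% of their inputs and 6.33 to 14.4% of the fRIP libraries. The fRIP input of replicate 4 stood apart, with 2.81% of its UMIs on miscellaneous RNA where the 3 other inputs of fRIP had 0.349 to 0.62%. Replicate 5 of the fRIP IP was set apart as well, with 14.4% on Gm26917 and Gm42418 against 6.33 to 7.82% in the other fRIP IP libraries. Counts of enriched genes are given with and without replicate 4, and the main ones also without replicate 5. The enriched shares by length class and the enriched genes with promoter windows are given with all replicates only.

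The share of each library that fell on the 119 genes was close to that of the input in the UV-RIP IP and larger in every fRIP IP than in its input. In UV-RIP the inputs of replicates 3 to 6 held 2.41, 2.47, 2.53 and 2.47% of their UMIs on these genes, and the IP libraries 2.25, 2.28, 2.66 and 2.56%. In fRIP the inputs held 2.12, 1.63, 1.77 and 2.02%, and the IP libraries 3.14, 2.90, 2.36 and 2.81%. The ratio of IP to input within a pair was 0.93, 0.92, 1.05 and 1.04 in UV-RIP and 1.48, 1.78, 1.33 and 1.39 in fRIP. The 4 fRIP inputs were all below the 4 UV-RIP inputs, whereas the IP libraries of both crosslinkers overlapped. In these bulk libraries, fewer cells that express a gene and less RNA per cell cannot be told apart.

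**Figure D1:**
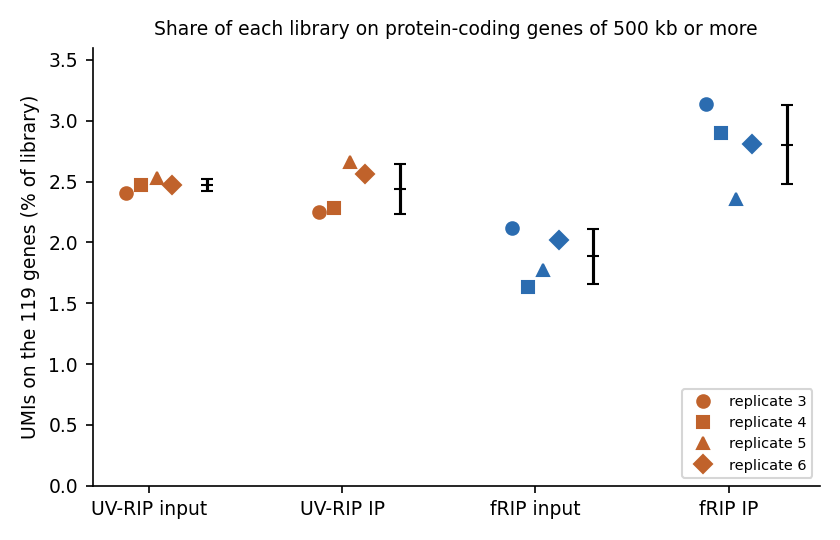
Share of the UMIs of each library (%, y axis) that fell on the 119 genes, by crosslinker and fraction (x axis). Each symbol is 1 library and its shape the replicate, and the bar to the right is the mean with the SD over 4 libraries. The fRIP inputs lie between 1.63 and 2.12% and no library of the other groups lies below 2.25%.

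In UV-RIP, no gene of the 119 was enriched and 1 was depleted. Enriched meant a fold above 1.5 in the IP over the input with an adjusted p below 0.05 in the quasi-likelihood test of edgeR, where p-values were adjusted by Benjamini-Hochberg over 22936 genes, and depleted the mirror. Of all genes tested, 0.65% were enriched and 5.48% depleted. The median log2 difference of the 119 genes was -0.07 and that of all genes -0.17, with quartiles of -0.22 and 0.10 for the 119. Without the fold threshold 21 of the 119 were higher in the IP and 44 lower, where 6.03% and 27.7% of all genes were. Those directions rest on the scaling: with TMM factors the counts were 55 and 10, the median of all genes was 0.01 and that of the 119 genes 0.11. The distance of the 119 genes from all genes was 0.10 to 0.11 under the 5 scalings run.

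The 5 highest UV-RIP values belonged to genes of unlike function. Slit3, a secreted ligand of Robo receptors in axon guidance (chr11:35121224-35708507), had 80.7, 73.6, 80.8 and 83.3 CPM in the IP libraries and 57.5, 58.4, 58.2 and 58.4 CPM in the inputs. Every IP library was above every input, the log2 difference was 0.45 (SD of 4 pairs 0.08, adjusted p = 6.07e-07), and the fold stayed under 1.5. With TMM factors the value was 0.63 and Slit3 passed as enriched, as did Tmem132d at 0.60, which had 0.42 with total UMIs. The calcium-activated potassium channel gene Kcnma1 followed at 0.38, the kinase gene Kalrn at 0.33 and the teneurin gene Tenm4 at 0.32.

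At the other end, Dach2, a cofactor of the Six-Eya transcription factors on the X chromosome (chrX:113297510-113836386), had 20.2, 21, 25 and 24.4 CPM in the UV-RIP IP libraries and 34.8, 36.9, 33.6 and 35.8 CPM in the inputs. The groups did not overlap and the log2 difference was -0.64 (SD 0.19, adjusted p = 9.88e-07). This was the depleted gene, and the call was lost with TMM factors (-0.46) and without replicate 4 (-0.58). Diaph2, a formin that nucleates actin and also X-linked, had 399, 423, 491 and 446 CPM in the IP libraries against 630, 643, 657 and 623 CPM in the inputs. Its log2 difference of -0.54 (SD 0.11, adjusted p = 2.63e-08) passed the test but not the fold, as did those of the diacylglycerol kinase gene Dgkb (-0.52), Ccser1 (-0.43) and Sugct (-0.43).

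In fRIP, 42 of the 119 genes (35.3%) were enriched and none was depleted. Of all genes tested, 8.81% were enriched and 10.9% depleted. The median log2 difference of the 119 was 0.45 (quartiles 0.30 and 0.66), against -0.03 over all genes, and 117 values were above 0. Without the fold threshold 99 were higher in the IP and none was lower, against 17.2% and 21.7% of all genes. In 102 of the 119 genes, a count that was not made over all genes, the IP exceeded the input in 4 of 4 pairs. Dmd was below its input in all 4. Without replicate 4 the median was 0.39 and 28 genes were enriched, and without replicate 5 the median was 0.52 and 46 were. The median of the 119 lay 0.47 to 0.48 above that of all genes under the 5 scalings.

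The largest fRIP value was that of St6galnac3 (chr3:153198266-153725174), which encodes a sialyltransferase of the Golgi. Its fRIP IP libraries had 457, 405, 364 and 429 CPM and the inputs 219, 164, 193 and 216 CPM, with no overlap. The log2 difference was 1.07 (SD of 4 pairs 0.17, adjusted p = 2.19e-06), and 0.99 without replicate 4. In UV-RIP the same gene had 236, 253, 276 and 274 CPM in the IP libraries and 251, 251, 256 and 250 CPM in the inputs, a difference of 0.04 (adjusted p = 0.503). Zfhx3, a transcription factor with zinc fingers and homeodomains (chr8:107942644-108961630), had 576, 556, 547 and 535 CPM in the fRIP IP libraries against 318, 187, 289 and 299 CPM in the inputs. Its low value of 187 CPM was the input of replicate 4, and the log2 difference of 1.04 (SD 0.35, adjusted p = 1.61e-05) was 0.87 without that replicate. Slit3 had 54.7, 48.2, 48.6 and 49.1 CPM in the fRIP IP libraries and 26.5, 22.4, 22.5 and 28 CPM in the inputs, a difference of 1.02 (SD 0.14, adjusted p = 3.54e-06). Dlgap2, a scaffold of the postsynaptic density, and Camta1, a calmodulin-binding transcription activator, followed at 1.01 each.

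The smallest fRIP values were those of Dmd at -0.15, Dlgap1 at -0.01, Diaph2 and the glutamate receptor gene Grm8 at 0.01 and Fgfr2 at 0.02. Dmd, which encodes dystrophin (chrX:82948870-85206141), had 123, 111, 79.2 and 108 CPM in the fRIP IP libraries and 127, 112, 102 and 121 CPM in the inputs. These groups overlapped (adjusted p = 0.168). In UV-RIP Dmd had 104, 106, 126 and 112 CPM in the IP libraries against 139, 134, 148 and 140 CPM in the inputs, a log2 difference of -0.32 (SD 0.08, adjusted p = 7.63e-06) that did not reach the fold. All 6 X-linked genes (Tenm1, Fgf13, Aff2, Dmd, Dach2 and Diaph2) had negative UV-RIP values, with a median of -0.34 against -0.04 in the 113 autosomal genes. None of the 6 was enriched in fRIP, where their median was 0.08 against 0.47, and -0.02 without replicate 4. The X-linked genes were set apart after their values were seen, and the difference was not tested.

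**Figure D2:**
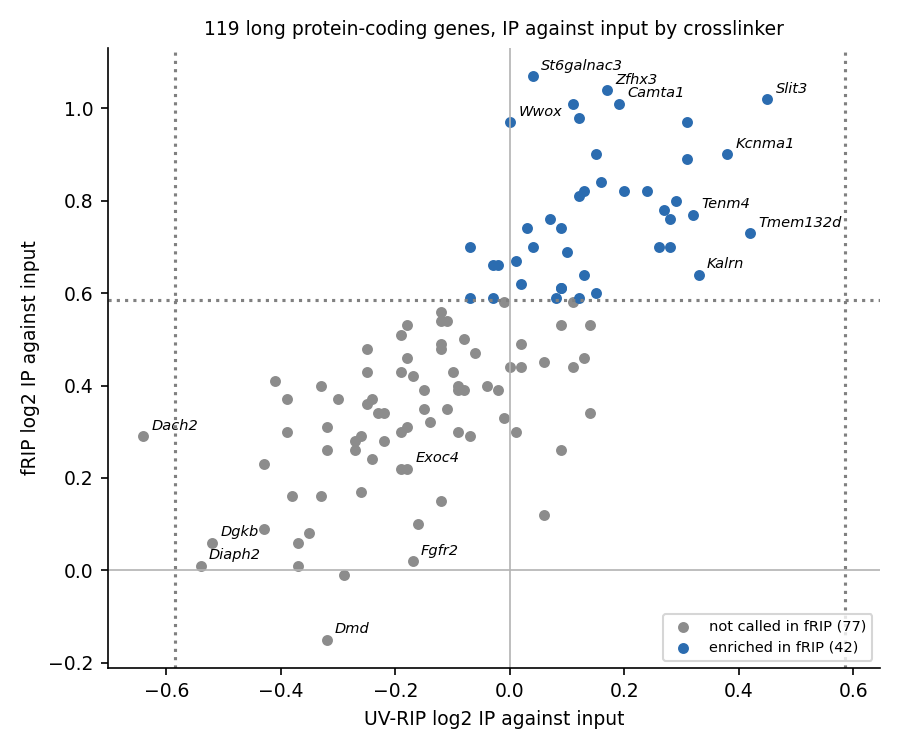
Log2 difference of IP from input in UV-RIP (x axis) and fRIP (y axis) for the 119 genes, each a point. Dotted lines mark a fold of 1.5, and blue points are the 42 genes enriched in fRIP, all but 2 of the 119 lying above 0 on the y axis.

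By function, enriched genes stood in every list, and no list held a gene depleted in fRIP. For comparison, 8.81% of all genes tested and 35.3% of the 119 were enriched, and differences between lists were not tested. Counts without replicate 4 follow each list's count, and without replicate 5 no list had fewer enriched genes. Of 17 adhesion genes 7 were enriched (6 without replicate 4, median log2 difference 0.58), among them Tenm4 at 0.77 and Ptprg at 0.74, and the cell adhesion gene Cntnap2 was at 0.12 without passing. Ptprg had 2670, 2510, 2020 and 2270 CPM in the fRIP IP libraries and 1620, 1240, 1370 and 1420 CPM in the inputs, with no overlap. The list of guidance ligands and receptors had 8 genes and also held Fgf13, which encodes neither a secreted ligand nor a receptor. Of the 8, 2 were enriched (median 0.37), Slit3 and the neurotrophin receptor gene Ntrk3 at 0.70, whereas the adhesion receptor gene Adgrv1 had 0.30. Without replicate 4 this count was 1, since Ntrk3 fell to 0.54 and under the fold. The channel list had 12 genes and also held Grm8 and Anks1b, which are not channel genes. Of the 12, 5 were enriched (4 without replicate 4, median 0.41). Among these were Kcnma1 at 0.90, the delta glutamate receptor gene Grid1 at 0.90 and the calcium channel subunit gene Cacna2d3 at 0.76. The others were the potassium channel auxiliary gene Dpp6 at 0.70 and the ryanodine receptor gene Ryr2 at 0.69. Ryr2 fell under the fold without replicate 4 (0.58). Of 14 genes of transcription and RNA regulation 7 were enriched (5 without replicate 4, median 0.54), among them Rora at 0.84, Smyd3 at 0.74, Sox5 at 0.66, Auts2 at 0.62 and Foxp1 at 0.61. Auts2, at 0.52, and Foxp1 lost the call without replicate 4.

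Of 13 signalling genes 6 were enriched (3 without replicate 4, median 0.53), with the Rac activator gene Dock1 at 0.81 and Kalrn at 0.64, while the cyclic AMP phosphodiesterase gene Pde4d was at 0.50 and under the fold. Kalrn and Elmo1, at 0.56 each, and Mast4, at 0.52, lost the call without replicate 4. Of 20 scaffold and cytoskeleton genes 6 were enriched (4 without replicate 4, median 0.41), with Dlgap2, the neuron navigator gene Nav2 at 0.78 and Magi1 at 0.70, and the list also held the low values of Dmd, Dlgap1 and Diaph2. Of 26 genes of trafficking, metabolism and repair 7 were enriched (4 without replicate 4, median 0.44), with St6galnac3, the oxidoreductase gene Wwox at 0.97 and Tmem132d at 0.73, while Exoc4 had 0.22 (adjusted p = 0.0515) and the recombination gene Rad51b 0.46. Of 9 genes on no list 2 were enriched, Gm20388 at 0.70 and Lrmda at 0.59. Without replicate 4 Lrmda was at 0.49 and 1 was enriched. Among 13 genes of common fragile sites, which overlap the other lists, 2 were enriched (Wwox and Auts2, or Wwox alone without replicate 4), and the median of the 13 was 0.37 in fRIP and -0.14 in UV-RIP.

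The difference of the IP response between the crosslinkers was tested as an interaction over all 16 libraries. With total UMIs and all replicates it was positive in all 119 genes, with a median of 0.54 (range 0.07 to 1.03) against 0.14 over all genes. It passed at an adjusted p below 0.05, with no fold threshold, in 106 of the 119 (89.1%), while no gene of the 119 was lower. Of all genes tested, 18.3% were higher in fRIP and 7.69% lower. The 472 protein-coding genes of 200 to 500 kb had the same median of 0.54, and 425 of them (90.0%) passed as higher in fRIP, at the same limit of 100 input UMIs. The largest differences were 1.03 in St6galnac3 (adjusted p = 2.67e-06), 0.97 in Wwox (adjusted p = 7.09e-06) and 0.93 in Dach2 (adjusted p = 1.67e-05). The smallest were 0.07 in Cntnap2, 0.17 in the FERM-domain gene Frmd4a and 0.18 in Dmd, and none of these passed (adjusted p = 0.739, 0.349 and 0.155). The sign did not hold throughout: without replicate 4 Cntnap2 was at -0.03 and Frmd4a at -0.01. With TMM factors 118 of the 119 values were positive and 1 was negative. Without replicate 4, 95 genes passed and the median was 0.44, and without replicate 5, 105 passed and it was 0.63. Crosslinker and culture plates went together, so that any difference between the sets of plates cannot be told apart from that between crosslinkers.

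The inputs already differed between the crosslinkers. In fRIP input against UV-RIP input, 33 of the 119 genes (27.7%) were lower by more than 1.5-fold and 1 was higher, where 9.75% and 10.7% of all genes were. The median was -0.43 against 0.03 over all genes, and 102 of the 119 values were negative. Without the fold threshold 84 were lower and 10 higher, against 17.3% and 20.3% of all genes. The summed pluripotency markers moved the other way and did not overlap between the inputs. They summed to 3890 to 4720 CPM in fRIP against 2460 to 2630 CPM in UV-RIP. The single markers did not vary alike, since over the inputs Tfcp2l1 ranged from 721 to 1600 CPM and Zfp42 from 68.7 to 79.5 CPM. The part of the markers in the result was not tested. Adamtsl1, of the ADAMTS-like secreted proteins (chr4:85514172-86428385), had 32.1, 26.4, 29.6 and 33.5 CPM in the fRIP inputs and 99.2, 104, 91.9 and 95.2 CPM in the UV-RIP inputs. The groups lay far apart, with a log2 difference of -1.68 (adjusted p = 4.99e-08). The sperm flagellum gene Spag16 followed at -1.47 and the adhesion receptor gene Adgrb3 at -1.35. The gene that was higher was Gabrg3, a GABA-A receptor subunit gene (chr7:56716465-57387188), with 12.6, 11.2, 11.5 and 10.5 CPM in the fRIP inputs against 6.18, 6.89, 8.33 and 8.46 CPM in the UV-RIP inputs, a difference of 0.62 (adjusted p = 0.000989). Lpp at 0.58 and Tmem132d at 0.49 passed the test but not the fold. Without replicate 4, 29 genes were lower and 2 higher, and the median was -0.37, while without replicate 5, 30 were lower and 3 higher. Without replicate 3 the higher gene was not called and 47 were lower. It was not called either without Gm26917 and Gm42418 in the library sizes, where 50 were lower. The level limit used the mean of these same inputs, so a gene could pass it through 1 crosslinker alone. Gabrg3 reached 100 UMIs in the fRIP inputs alone (164 against 97.5 UMIs), and 6 genes in the UV-RIP inputs alone, among them Spag16 (171 against 67.5 UMIs), of which 5 were called lower. Of the 112 genes with 100 or more in both, 28 were lower and none higher, with a median of -0.42.

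The IP libraries were also compared with each other, in a comparison added after the inputs had been seen. In fRIP IP against UV-RIP IP, 16 of the 119 genes (13.4%) were higher and 9 (7.56%) lower, where 11.4% and 4.99% of all genes were. With replicates left out in turn 14 to 23 were higher and 7 to 12 lower, and the median moved from 0.12 to 0.02 without replicate 3 and to 0.24 without replicate 5. The median of 0.12 lay 0.06 below the 0.18 of all genes, and under the other 4 scalings it lay 0.07 below. Its sign rests on the scaling, since the median was -0.04 with TMM factors and -0.12 without Gm26917 and Gm42418 in the library sizes. Without the fold threshold 46 were higher and 19 lower, against 27.4% and 9.78% of all genes. With TMM factors these counts were 28 and 27, and without Gm26917 and Gm42418 in the library sizes 21 and 42. The highest values were 1.20 in the adhesion gene Negr1, 1.18 in Zfhx3 and 1.07 in Anks1b, and the lowest were -1.23 in Adamtsl1, -0.93 in Aff2 and -0.85 in Spag16. Negr1, Anks1b and Aff2 were named after their values were seen. The interaction is by construction the IP difference less the input difference, and the input difference was the larger in absolute size in 79 of the 119 genes. In Dach2 the IP libraries differed by -0.10 (adjusted p = 0.524) and the inputs by -1.02 (adjusted p = 1.81e-05). In Zfhx3 the IP libraries differed by 1.18 (adjusted p = 8.45e-11) and the inputs by 0.34 (adjusted p = 0.0409).

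**Figure D3:**
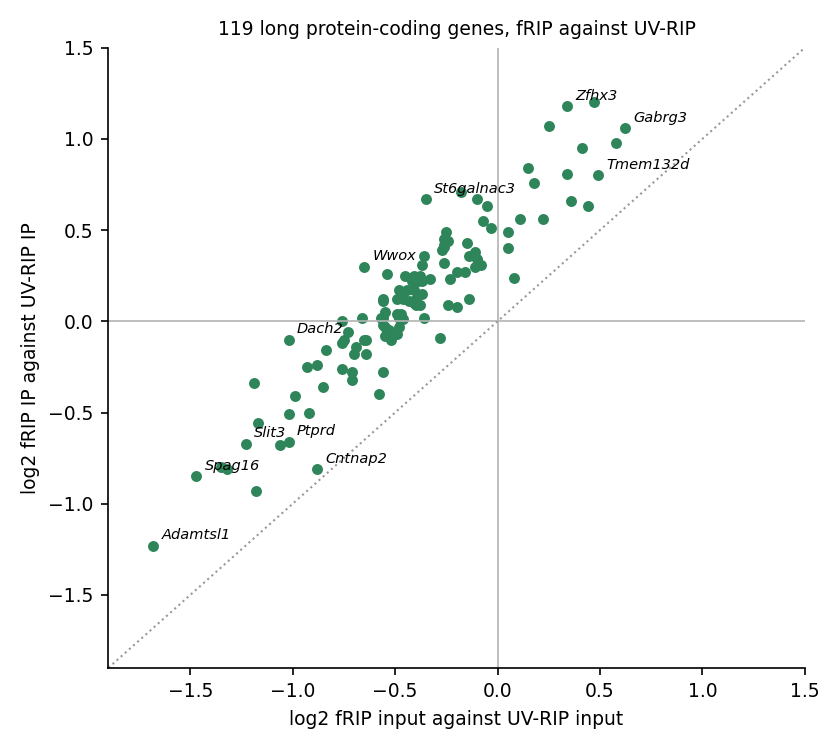
Log2 difference between fRIP and UV-RIP in the inputs (x axis) and in the IP libraries (y axis) for the 119 genes, each a point, with the line of equal values dotted. All 119 points lie above the line, and 102 lie left of 0 on the x axis.

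Protein-coding genes were also set out by length, at the same limit of 100 input UMIs. In IP against input the 119 genes lay near the next shorter class, whereas between the crosslinkers their input and IP medians lay below those of all 5 shorter classes. The median fRIP difference of IP from input was -0.58 in 1699 genes under 10 kb, -0.17 in 4723 genes of 10 to 50 kb, 0.08 in 1635 of 50 to 100 kb, 0.30 in 974 of 100 to 200 kb and 0.51 in 472 of 200 to 500 kb, against 0.45 in the 119. Without replicate 4 these fRIP medians were -0.53, -0.17, 0.03, 0.24 and 0.43, against 0.39. With all replicates, enriched genes made up 42.8% of the class of 200 to 500 kb and 35.3% of the 119. The UV-RIP medians of the same classes were -0.23, -0.19, -0.17, -0.09 and -0.02, against -0.07. The fRIP inputs differed from the UV-RIP inputs by 0.50, 0.09, -0.04, -0.10 and -0.27, against -0.43, and 20.3% of the class of 200 to 500 kb were called lower, against 27.7%. Without replicate 4 the medians of the inputs were 0.42, 0.09, -0.01, -0.05 and -0.22, against -0.37. The interaction had medians of -0.32, 0.04, 0.27, 0.42 and 0.54, against 0.54, and 73.1% passed as higher in the class of 100 to 200 kb. Between the IP libraries the medians lay from 0.15 to 0.28 in the 5 shorter classes and at 0.12 in the 119. The fRIP and UV-RIP values of these classes share their input libraries with the comparison of inputs, and the differences between classes were not tested. Within the 119 genes length had little relation to the response, with a Spearman correlation of -0.04 in fRIP and -0.06 in UV-RIP over 119 genes of the same libraries.

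**Figure D4:**
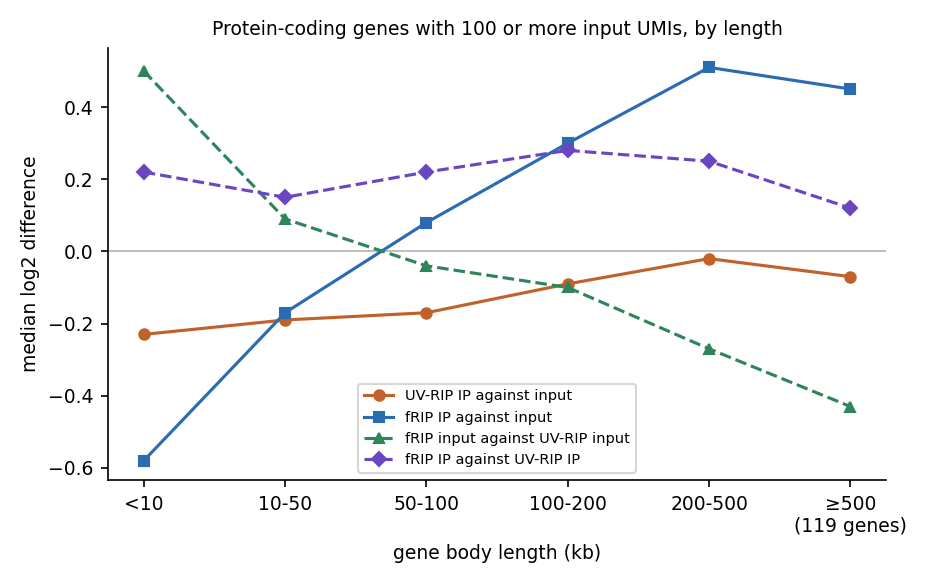
Median log2 difference (y axis) of protein-coding genes with 100 or more input UMIs by gene body length in kb (x axis), for 4 comparisons. The last class is the 119 genes, where the fRIP line is at 0.45, the UV-RIP line at -0.07, the line of the inputs at -0.43 and that of the IP libraries at 0.12.

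The response of the 119 genes ran with their base composition. The GC share of the longest annotated transcript, which is mature RNA and not the body, had a median of 46.3% in the 119 genes and 49.2% in shorter protein-coding genes. Its Spearman correlation with the log2 difference of IP from input over the 119 genes was 0.50 in UV-RIP and 0.48 in fRIP, and 0.44 to 0.48 and 0.38 to 0.52 in the single pairs. Of the 39 genes with the lowest GC (36.8 to 44.5%) 2 were enriched in fRIP (1 without replicate 4) and the medians were -0.22 in UV-RIP and 0.31 in fRIP. Of the 40 with the highest GC (49 to 58.5%) 23 were enriched (15 without replicate 4), with medians of 0.08 and 0.60. The difference between the crosslinkers had medians of 0.52, 0.60 and 0.54 from the lowest to the highest class, and a correlation of 0.05. Slit3 had 56.8% GC, Zfhx3 53.0%, Dmd 41.5%, Diaph2 40.8% and Dach2 39.1%, whereas St6galnac3, the highest in fRIP, had 44.9%. In shorter protein-coding genes the correlation was 0.56 to 0.70 in UV-RIP and 0.43 to 0.68 in fRIP over the 5 length classes. In the 113 autosomal genes of the 119 the correlation was 0.46 for both crosslinkers. In the promoter windows, the 30 enriched genes had a median of 28 CG dinucleotides and the other 56 genes 19.5. In the 66 windows within 1000 bp of the 5' end these medians were 32.5 (22 genes) and 25.5 (44 genes). All points of a correlation share the same libraries, and the part of base composition in the enrichment was not tested.

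**Figure D5:**
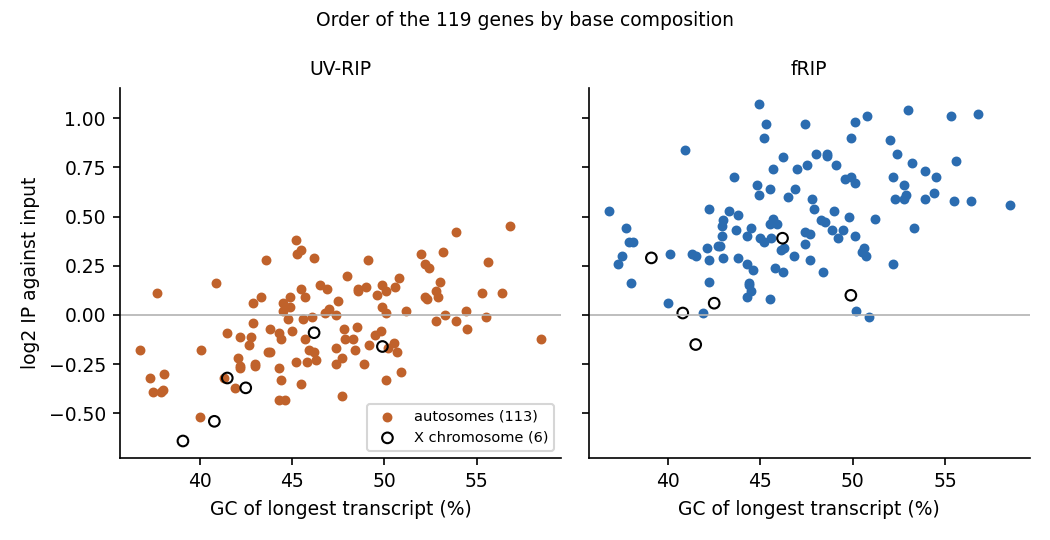
Log2 difference of IP from input (y axis) against the GC share of the longest annotated transcript (%, x axis) for the 119 genes in UV-RIP (left) and fRIP (right). Filled points are 113 autosomal genes and open circles 6 X-linked genes, and the values rise with GC in both panels, with correlations of 0.50 and 0.48.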

How the data were processed

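The authors mapped reads with STAR to mm10 with GENCODE vM16, discarded reads without a unique position and counted UMIs over gene bodies with featureCounts; the deposited table holds these counts, not normalized, and a Length that equals the body from start to end. Genes nested on the same strand within the 119 were at 0, so positions shared there were not counted. Here the counts of 22936 genes that reached 3 UMIs in any library were fitted in edgeR 4.0.16 (R 4.3.3) with quasi-likelihood tests, library size set to total UMIs and the replicate (in the interaction, the plate) as a block, with Benjamini-Hochberg adjustment over all genes; comparisons between crosslinkers had no block. DESeq2 1.42.0 was an alternative. IP and input of a number come from the same lysate; their deviations from group means correlated at 0.03 to 0.44 in UV-RIP and 0.11 to 0.60 in fRIP. The 119 genes and the function lists were chosen with earlier results of these data known, and some genes were put on lists after their names had been seen. Genes were named by rule: the 5 highest and lowest per crosslinker, the 3 highest and lowest of the interaction and of the inputs, the 5 highest levels per length, the 3 longest, the neighbours of both thresholds and the 2 best-covered of each list; other genes were named as examples after their values were seen. Coordinates are from GENCODE vM21 (GRCm38) for genes of the same version. The replicates were separate culture plates, with 12456298 to 21211537 UMIs a library.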

Additional observations from a re-analysis of the deposited data

Results flagged for a closer look

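Among 86 groups of 4 values tested, 8 had a sample far from the other 3, all in fRIP; chance flags about 1 in 20 groups. In 7 of the 8 the value apart was the IP to input ratio of replicate 4, whose input stood apart in composition. The log2 ratios of that replicate were 0.88 in Kalrn, 1.57 in Zfhx3, 1.31 in Camta1, 1.36 in Wwox, 0.71 in Frmd4a, 1.03 in Ryr2 and 0.83 in Dpp6. The eighth was Fgfr2, where replicate 5 was at -0.09 and the other 3 between 0.05 and 0.07.

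A response to the IP that differed between the crosslinkers was found for 106 of the 119 genes by the interaction test of edgeR with Benjamini-Hochberg adjustment, where 18.3% of all genes and 90.0% of 472 protein-coding genes of 200 to 500 kb were higher in fRIP. Among the genes named for their difference, it was 1.03 in St6galnac3, 0.97 in Wwox and 0.93 in Dach2.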

How the results depend on the processing

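The fRIP median of 0.45, the interaction median of 0.54 and the input median of -0.43 kept their sign under all alternatives run. In UV-RIP the 0 enriched and 1 depleted gene became 2 and 0 with TMM factors or DESeq2 median-of-ratios and 1 and 0 without Gm26917 and Gm42418, and the median became 0.11, 0.11 and 0.08. Between the IP libraries these 3 scalings gave medians of -0.04, -0.05 and -0.12, with 10, 10 and 7 genes higher, and 15 lower without Gm26917 and Gm42418. With no fold threshold 21 and 44 genes were higher and lower in UV-RIP, 99 higher in fRIP, 10 and 84 in the inputs and 46 and 19 between the IP libraries (28 and 27 with TMM factors, 21 and 42 without Gm26917 and Gm42418). Without Gm26917 and Gm42418, 0 genes were higher and 50 lower in the fRIP inputs. With single replicates left out, 0 to 1 genes were depleted in UV-RIP and its median was -0.10 to -0.03, 28 to 46 were enriched in fRIP, 83 to 105 passed the interaction, 0 to 3 were higher and 29 to 47 lower in the fRIP inputs, and 14 to 23 were higher and 7 to 12 lower between the IP libraries (median 0.02 to 0.24). The UV-RIP call was lost without replicate 4. Without the replicate block the counts were 0 and 1 in UV-RIP, 42 in fRIP and 89 for the interaction, and the pairing changed no other count by over 1.5 times; a block on the number in the inputs gave 34 lower. An edgeR legacy fit, added after seeing the data, gave 1, 42, 107 and 33. With 100 or more UMIs in the inputs of both crosslinkers, also added then, 0 were higher and 28 lower in the fRIP inputs. Other membership rules (25, 80, 130 and 124 genes) reversed no median of IP against input. The cause of these changes was not tested. Depth was not varied, and genes with at least 300 UMIs had a fRIP median of 0.50.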
